A study of Mus musculus with 8 samples.

Results

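Collagen chains were taken as every gene whose symbol in the deposited array table reads Col, a number, a and a number. They comprised 41 genes on 55 probes, of 25734 named genes and 39341 probes in all. Col4a3bp, a ceramide transporter, does not have that form of symbol and was left out. Another 3 chains stand in the table under other symbols (Dvwa for Col6a4, Gm7455 for Col6a5 and Emid2 for Col26a1) and are given apart from the 41.

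Whole-lung RNA of 4 mice with an induced transgene for human TGF-β1 (group TGFb1-Tg) was compared with that of 4 wild-type littermates (group WT). The mice were 10 weeks old and on the B6J background per the labels. The transgene is switched on by doxycycline in the drinking water, at 1 mg/ml per the labels. The labels give harvests from 2 to 14 days for the study, and the file headers give 14 days for all lungs of both groups. The promoter that drives the transgene is not given in the sources used here. On each of 8 arrays a lung was hybridised in Cy5 together with a pooled control in Cy3, with no dye swap. The sources disagree on the pool: the labels name 1 combined WT pool throughout, while in the headers the pool is made of 4 untreated lungs of the same genotype as the array's own sample, all from mice that drank water. The headers also put the WT lungs on water, so that doxycycline and the induced transgene cannot be told apart if they are right.

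Collagen chains wind together into helical molecules that carry most of the load in connective tissue. Fibrillar chains form the rope-like fibrils of the lung interstitium and airways, network chains form sheets such as the basement membrane under epithelium and endothelium, and FACIT chains coat the surface of fibrils. Beaded filament chains build microfibrils around cells, transmembrane chains stay in the cell membrane, and the anchoring fibril and multiplexin chains tie basement membranes to the tissue below. TGF-β1 is known to raise transcription of fibrillar collagen genes in fibroblasts through SMAD proteins.

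All values below rest on the log2 ratio of sample to pool intensity, averaged over the probes of a gene, unless the sample channel alone is named. Differences are TGFb1-Tg minus WT on that log2 scale with their standard error (SE). A gene was called where limma's test over 25647 genes gave a Benjamini-Hochberg adjusted p under 0.05. The pools of the WT and TGFb1-Tg arrays were not alike, as given below. Each ratio therefore sets a lung against the pool of its own array set. A difference of ratios is thus not a direct comparison of TGFb1-Tg with WT lungs. Each group held 4 arrays, and nothing in the labels says more of the animals than a replicate number, so the p-values measure the spread between these samples. In whole lung, fewer cells of a type and less RNA per cell cannot be told apart.

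Between 39039 and 39281 probes had values on an array. Over all probes the log2 ratios had an SD of 0.13 to 0.16 in the WT set, against 0.39 to 0.41 in the TGFb1-Tg set. The probe for mouse Tgfb1 averaged 0.03 ± 0.12 (SD, n = 4) in WT and 1.07 ± 0.12 (SD, n = 4) in TGFb1-Tg lungs. This difference of 1.03 gave p = 0.0286 in a two-sided exact permutation test, the smallest p that 4 against 4 arrays allow; whether the probe reads the human transgene is not given. The pools were not alike: Xist, the RNA that silences an X chromosome in female cells, read 1.04 to 1.13 in the pool of the WT arrays and 0.01 to 0.02 in that of the TGFb1-Tg arrays. WT replicate 1 stood apart with Xist at 4.6 and Ddx3y, a Y-linked gene, at 0.04 in its sample channel, against 0.01 to 0.04 and 6.83 to 10.35 in the other 7 lungs.

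Of the 41 collagen genes, 40 could be tested. By the ratio to the pool, 19 were called higher in TGFb1-Tg lungs, 5 were called lower and 16 had no call. Of all genes, 38.8% were called, 19% higher and 19.8% lower. The median difference over the collagen genes was 0.21, beside 0.00 over all genes. At least 2-fold, 5 chains were higher and 1 was lower, where 1.91% of all genes were called and at least 2-fold higher and 1.6% lower. Without WT replicate 1, 17 chains were called higher and 3 lower. When quantile normalization gave the ratios of all arrays one spread, 8 chains were called higher (Col2a1, Col5a1, Col5a2, Col7a1, Col8a1, Col16a1, Col18a1 and Col24a1) and 2 lower (Col17a1 and Col4a6), beside 12% of all genes called, 6.25% higher and 5.76% lower, and the other 14 calls were lost.

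The calls were unevenly spread over brightness. A mean intensity under 0.1, here termed dim, was found for 10 of the tested chains, where a step of 0.01 in the deposited value is a large part of the signal. Of the 30 tested chains that were not dim, 18 were called higher and 3 lower (median 0.31), beside 25.5% and 26.9% of all genes that were not dim. Of the 10 dim chains, 1 was called higher and 2 lower (median -0.08). In 21 of 40 chains the 4 TGFb1-Tg arrays did not overlap the 4 WT arrays, in 18 upward and in 3 downward, where 37.4% of all genes did not overlap, 18.2% upward and 19.1% downward.

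**Figure D1:**
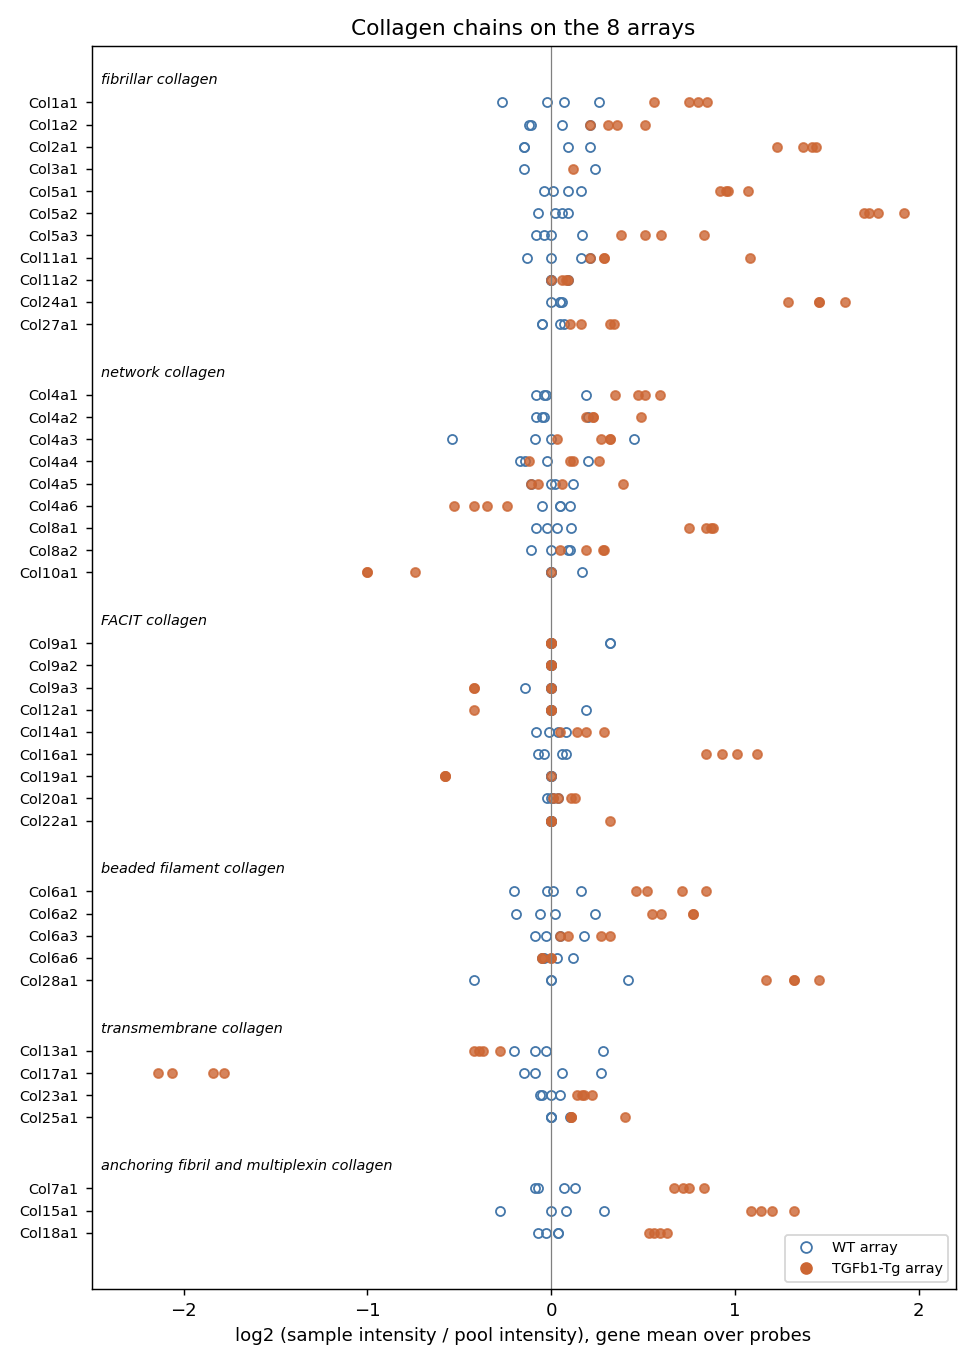
Log2 of sample over pool intensity (x axis) of the 41 collagen genes (rows, by class) on each array, with open circles for the 4 WT arrays and filled circles for the 4 TGFb1-Tg arrays. Col5a2, Col24a1, Col2a1, Col28a1 and Col15a1 lie farthest to the right in the transgenic lungs and Col17a1 lies alone at the left.

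The fibrillar chains, which form the load-bearing fibrils, were called higher in 8 of 10 tested and lower in none, with a median difference of 0.65. The class median was 0.54, 0.96, 0.66 and 0.68 on the TGFb1-Tg arrays and between -0.04 and 0.13 on the WT arrays.

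The chains of type I collagen, the main fibril of lung interstitium, were among the brightest probes on the arrays. Col1a1, its α1 chain, had sample intensities of 14.77, 11.39, 16.04 and 14.28 in the WT lungs and 19.3, 20.44, 23.38 and 22.22 in the TGFb1-Tg lungs on its brighter probe. The pool channel of that probe read 14.13, 13.88, 13.27 and 13.47 on the WT arrays and 13.68, 10.68, 13.81 and 13.27 on the TGFb1-Tg arrays. Every transgenic lung was thus brighter than every WT lung while most pool readings stayed level. Col1a1 rose by 0.73 (SE 0.12, 1.66-fold, limma adjusted p = 0.00271).

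Col1a2, the α2 chain of the same molecule, read 14.26, 12.16, 14.46 and 14.16 in the WT lungs and 20.62, 24.35, 24.17 and 23.59 in the TGFb1-Tg lungs. Its pool read 12.5 to 15.45 on the WT arrays but 16.96 to 19.09 on the TGFb1-Tg arrays, so the ratio to the pool shows less than the sample channel does. The ratio rose by 0.34 (SE 0.09, limma adjusted p = 0.028), with 1 WT array and 1 TGFb1-Tg array both at 0.21. This call was lost without WT replicate 1 (0.29, adjusted p = 0.0743), and also when any of WT replicates 2 and 4 or TGFb1-Tg replicates 2, 3 and 4 was left out (0.28 to 0.35, adjusted p = 0.0555 to 0.0727). The sample channel reached 96.7% of the array's highest intensity for Col1a1 and 100% for Col1a2, and compressed readings there would understate both differences.

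Col3a1, the chain of type III collagen that accompanies type I in distensible tissue, had values on only 3 arrays and no test. Its sample intensity was 21.22 and 26.53 in WT replicates 1 and 4 and 16.64 in TGFb1-Tg replicate 1, with pools of 23.52, 22.46 and 15.33. Both channels were low on the transgenic array, and the log2 ratios were -0.15, 0.24 and 0.12.

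The type V chains, which enter type I fibrils and set their diameter, included the largest rise of a gene-mean ratio among the collagens; in the sample channel alone Col2a1 rose most under each scaling. Col5a2 read 2.21, 1.88, 2.02 and 2.26 in the WT lungs and 9, 7.35, 6.55 and 6.68 in the TGFb1-Tg lungs on its brighter probe, with pools of 1.91 to 2.21 and 2.31 to 2.63. No transgenic lung came near a WT lung. The gene mean rose by 1.76 (SE 0.06, 3.38-fold, limma adjusted p = 4.31e-06), with its probes at 1.58 and 1.94. Its partner Col5a1 had log2 ratios of 0.01, -0.04, 0.16 and 0.09 in WT and 0.96, 1.07, 0.95 and 0.92 in TGFb1-Tg lungs, again without overlap. Col5a1 rose by 0.92 (SE 0.05, limma adjusted p = 2.61e-05). The third chain, Col5a3, had ratios of -0.08, -0.04, 0.17 and 0 against 0.51, 0.83, 0.38 and 0.6, and rose by 0.57 (SE 0.1).

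Col2a1, the chain of type II collagen that forms cartilage fibrils, had a mean intensity of 1.39 and also rose. It read 0.64, 0.53, 0.67 and 0.66 in the WT lungs and 2.84, 3.43, 2.99 and 3.12 in the TGFb1-Tg lungs. The pool readings also stood apart, at 0.58 to 0.71 beside the WT lungs and 1.1 to 1.33 beside the TGFb1-Tg lungs, a ratio of 1.92 that was the highest pool ratio among the chains named here. The ratio to the pool rose by 1.37 (SE 0.1, 2.58-fold, limma adjusted p = 5.91e-05), and the quantile-normalized sample channel alone rose by 2.18.

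The markers of cartilage, a tissue of the large airways, moved partly with Col2a1. Of 10 listed, 4 were called higher (Sox9, Hapln1, Comp and Matn3) and none lower, and their summed sample intensity was 0.765 to 0.93 in WT and 1.01 to 1.34 in TGFb1-Tg lungs. Sox9, a transcription factor of cartilage that other tissues also express, rose by 1.12 (SE 0.08). Its own sample intensity was 0.37 to 0.41 in WT and 0.66 to 0.93 in TGFb1-Tg lungs, close to the gain of the sum. The other 9 were dim, the called Hapln1, Comp and Matn3 included, and none was listed at 0. The sample channel called 3 higher and 2 lower when median-centred, 3 and 0 after quantile normalization, and 1 and 3 when centred on probes that are not dim. Their part in the Col2a1 result was not tested.

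Col24a1, a fibrillar chain of developing bone, rose by 1.41 as a gene mean (SE 0.06, limma adjusted p = 1.2e-05), but its probes disagreed. One probe read 0.06, 0.07, 0.08 and 0.05 in WT and 0.53, 0.46, 0.51 and 0.36 in TGFb1-Tg lungs, a difference of 2.90 (SE 0.13). The other read 0.08 to 0.16 in WT and 0.08 to 0.11 in TGFb1-Tg lungs, with a difference of -0.08 and no call. Only 1 of its probes therefore carries the rise, and the gene mean lies between them.

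The remaining fibrillar chains changed little. Col27a1, a fibrillar chain of cartilage, had ratios of 0.07, -0.05, 0.05 and -0.05 in WT and 0.1, 0.32, 0.34 and 0.16 in TGFb1-Tg lungs. It rose by 0.22 (SE 0.06, limma adjusted p = 0.029), and this call was lost when any of WT replicates 2 and 4 or TGFb1-Tg replicates 2 and 3 was left out (adjusted p = 0.0657 to 0.0788). The type XI chains, which nucleate cartilage fibrils, had no call. Col11a2 gave 0, 0, 0 and 0.09 in WT and 0.06, 0.08, 0.09 and 0 in TGFb1-Tg lungs. Col11a1 was dim, at 0, 0.21, -0.13 and 0.16 against 0.21, 1.08, 0.29 and 0.29, and 1 of its probes was called (0.94, SE 0.22) while the other was not (-0.12, SE 0.27).

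**Figure D2:**
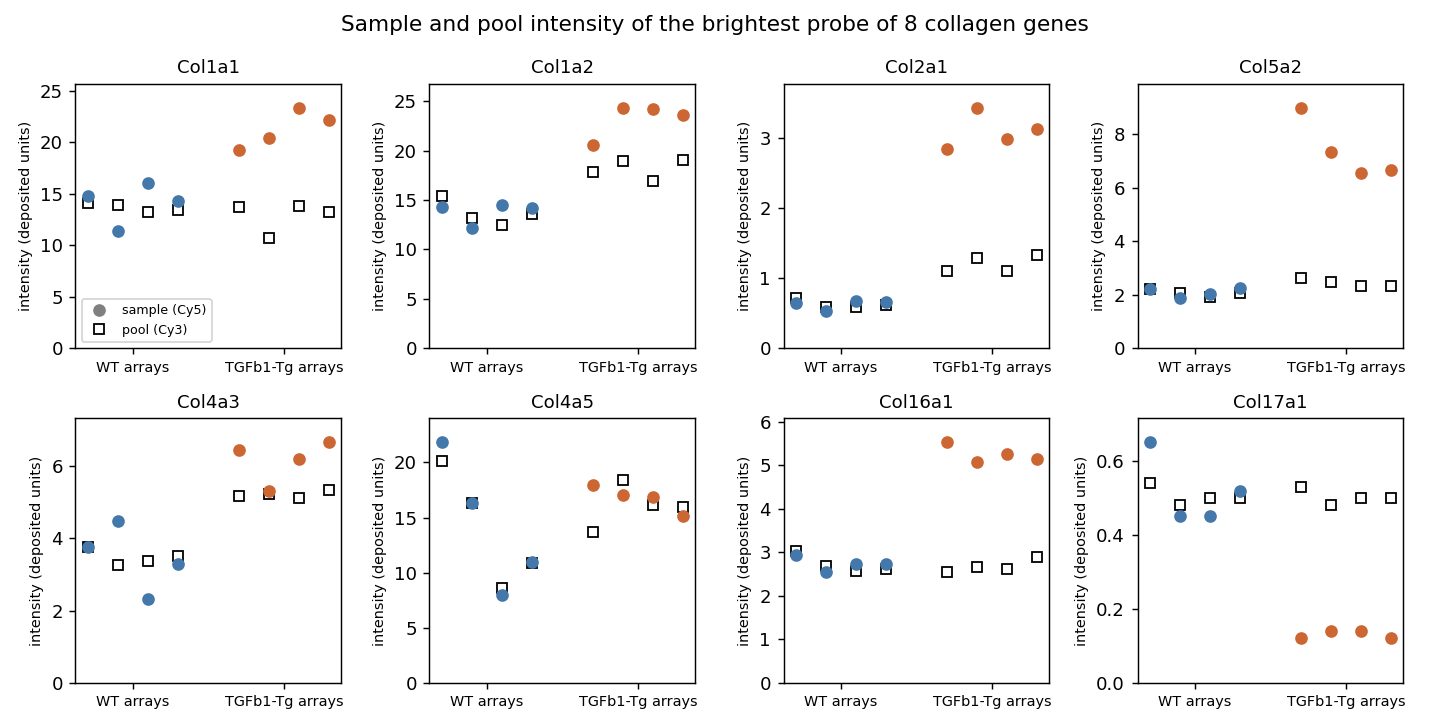
Deposited intensity of the brightest probe (y axis, from 0) of 8 collagen genes on each array, with filled circles for the Cy5 lung sample and open squares for the Cy3 pool. The pool is higher on the TGFb1-Tg arrays for Col1a2, Col2a1 and Col4a3, near level for Col16a1 and Col17a1, and varies with the sample on the WT arrays for Col4a5.

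Sequence just before the gene start is shown for 3 chains that rose (Col1a2, Col5a1 and Col16a1) and for the chain with the deepest fall among the 41 (Col17a1), to set beside their values. They are RefSeq sequences of build GRCm38.p6, 250 bases upstream of each gene start, 5′ to 3′ on the gene's strand, and capitals mark CAGAC or its reverse complement GTCTG, the short SMAD-binding box. Col1a2 lies at chr6:4505368-4505617 on the + strand, Col5a1 at chr2:27886175-27886424 on the + strand, Col16a1 at chr4:130047590-130047839 on the + strand and Col17a1 at chr19:47692043-47692292 on the - strand.
Col1a2: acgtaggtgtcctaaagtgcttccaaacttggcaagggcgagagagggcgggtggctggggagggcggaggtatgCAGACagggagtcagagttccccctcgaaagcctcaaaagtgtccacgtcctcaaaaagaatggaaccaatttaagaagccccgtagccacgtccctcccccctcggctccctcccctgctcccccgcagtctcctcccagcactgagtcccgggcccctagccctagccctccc
Col5a1: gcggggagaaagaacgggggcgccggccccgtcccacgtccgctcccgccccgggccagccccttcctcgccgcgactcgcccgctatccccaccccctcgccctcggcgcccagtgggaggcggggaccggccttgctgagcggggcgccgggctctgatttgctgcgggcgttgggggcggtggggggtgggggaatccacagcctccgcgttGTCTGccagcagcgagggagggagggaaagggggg
Col16a1: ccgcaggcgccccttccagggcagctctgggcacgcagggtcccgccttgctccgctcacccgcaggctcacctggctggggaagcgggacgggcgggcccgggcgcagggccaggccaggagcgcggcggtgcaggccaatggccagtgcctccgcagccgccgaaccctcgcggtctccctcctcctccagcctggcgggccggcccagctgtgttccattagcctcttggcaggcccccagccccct
Col17a1: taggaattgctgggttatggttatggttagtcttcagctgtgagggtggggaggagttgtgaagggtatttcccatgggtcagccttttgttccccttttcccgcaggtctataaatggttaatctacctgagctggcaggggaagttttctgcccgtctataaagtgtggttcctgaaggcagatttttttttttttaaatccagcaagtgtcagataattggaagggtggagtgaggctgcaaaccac

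The box occurred once in this window of Col1a2 and once in that of Col5a1, and these letters were not in the windows of Col16a1 and Col17a1. Of 41 chains, 33 had an upstream sequence in the table used (not Col1a1, Col2a1, Col4a3, Col5a2, Col9a3, Col12a1, Col14a1 and Col22a1), and 17 of these 33 held the box on either strand, beside 45.8% of 27025 genes. Among the chains called higher, 9 of 16 with a sequence held it. GGGCGG, the GC box bound by Sp1, occurred on either strand for 19 of the 33 chains, beside 35.4% of genes. TATAAA occurred for 5 of the 33, beside 14.3% of genes, and stood at 2 places in the window of Col17a1. A match is a run of letters and was not tested for binding.

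The network chains split within the type IV family, whose 6 chains pair into separate basement membrane molecules. Of 9 network chains tested, 3 were called higher (Col8a1, Col4a1 and Col4a2) and 2 lower (Col10a1 and Col4a6), with a median of 0.18. Col4a1 and Col4a2 build the common basement membrane and share a start region on opposite strands. Col4a1 had log2 ratios of -0.08, -0.04, 0.19 and -0.03 in WT and 0.35, 0.47, 0.59 and 0.51 in TGFb1-Tg lungs, with no overlap, and rose by 0.47 (SE 0.07, limma adjusted p = 0.0022). Col4a2 had -0.08, -0.05, 0.2 and -0.04 against 0.19, 0.23, 0.49 and 0.23, with 1 WT array inside the transgenic range. Its rise of 0.28 (SE 0.09, limma adjusted p = 0.042) was lost on leaving out any single array other than WT replicate 3 (0.21 to 0.31, adjusted p = 0.0546 to 0.105), and with a loess fit within arrays (0.26, adjusted p = 0.0761). Both chains reached at least 87.4% of an array's highest sample intensity.

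Col4a3, Col4a4 and Col4a5, the chains of the alveolar and glomerular basement membrane, had no call by the ratio. Col4a3 gave 0, 0.45, -0.54 and -0.09 in WT and 0.32, 0.03, 0.27 and 0.32 in TGFb1-Tg lungs, so that the WT arrays alone spanned the transgenic ones. Its sample channel nevertheless read 3.76, 4.47, 2.32 and 3.3 in WT against 6.45, 5.32, 6.19 and 6.66, with no overlap, and its pool read 3.27 to 3.76 against 5.13 to 5.35. The sample channel alone thus rose by 0.69 after quantile normalization (limma adjusted p = 0.0154), where the ratio gave 0.28 (SE 0.2, adjusted p = 0.338). Col4a4 gave -0.02, 0.2, -0.14 and -0.17 against 0.1, -0.12, 0.26 and 0.12, which overlapped. Its sample channel did not overlap, at 1.02 to 1.35 in WT and 1.39 to 1.73 in TGFb1-Tg lungs as a mean of its probes. That channel was called higher when median-centred (0.74, limma adjusted p = 0.00198) and when centred on probes that are not dim (0.39, adjusted p = 0.0242). After quantile normalization it had no call (0.31, adjusted p = 0.0654).

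Col4a5 gave log2 ratios of 0.12, 0, -0.11 and 0.02 in WT and 0.39, -0.11, 0.06 and -0.07 in TGFb1-Tg lungs, which overlapped. Its WT intensities varied in both channels, at 21.81, 16.29, 7.96 and 10.97 in the samples and 20.13, 16.29, 8.57 and 10.85 in the pool they share, so the probe varied with the array and not with the lung alone. Col4a6, the neighbour of Col4a5 on the X chromosome and a chain of smooth muscle and airway basement membrane, was called lower. It had 0.05, 0.1, 0.05 and -0.05 in WT and -0.24, -0.42, -0.35 and -0.53 in TGFb1-Tg lungs, without overlap, and fell by 0.42 (SE 0.06, limma adjusted p = 0.00189). The call was lost in the median-centred sample channel (-0.24, adjusted p = 0.116), where the groups overlapped, and held after quantile normalization (-0.38). Of 9 smooth muscle and pericyte markers, 5 were called lower and 1 higher. The median-centred sample channel called 4 lower and 2 higher, and each of its other scalings 6 lower and none higher. The summed sample intensity of these markers was 38.2 to 51.5 in WT and 29.8 to 32.7 in TGFb1-Tg lungs. None of these was listed at 0, and their part in the Col4a6 result was not tested.

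Among the short network chains, Col8a1, a chain of vessel-wall and corneal sheets, rose by 0.82 (SE 0.05, 1.77-fold, limma adjusted p = 2.89e-05). Its brightest probe read 0.56 to 0.64 in WT and 1.62 to 1.86 in TGFb1-Tg lungs. Its probes differed by 1.23, 0.99 and, on a dim probe without a call, 0.25. Its partner Col8a2 differed by 0.18 (SE 0.07, limma adjusted p = 0.0795) and had no call. Col10a1, the chain of hypertrophic cartilage, was dim and was called lower (-0.73, SE 0.22, limma adjusted p = 0.0401), with samples of 0.07 to 0.12 in WT and 0.02 to 0.03 in TGFb1-Tg lungs. Leaving out any array but TGFb1-Tg replicate 1 ended the Col10a1 call.

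The FACIT chains, which sit on fibril surfaces, showed 1 call in each direction among 9 tested and a median of 0.00. Col16a1, found in skin, muscle and vessel walls, was the exception by size, reading 2.95, 2.55, 2.73 and 2.74 in WT and 5.53, 5.09, 5.27 and 5.16 in TGFb1-Tg lungs. Its pool stayed between 2.54 and 3.04 on all 8 arrays, and it rose by 0.97 (SE 0.07, 1.95-fold, limma adjusted p = 5.85e-05). Col14a1, which coats fibrils of mature connective tissue, had no call as a gene mean (0.16, SE 0.06, adjusted p = 0.0614). Its bright probe read 1.19 to 1.47 in WT and 2.08 to 2.45 in TGFb1-Tg lungs and was called higher (0.63, SE 0.09), while a dim probe was called lower (-0.31, SE 0.1). The type IX chains Col9a1, Col9a2 and Col9a3, which coat cartilage fibrils, were dim, without a call by the ratio, and differed by -0.16, 0.00 and -0.17. Col9a3 read 0.07 to 0.1 in WT and 0.03 to 0.04 in TGFb1-Tg samples, with pools of 0.07 to 0.11 and 0.03 to 0.04, and the sample channel alone was called lower under each scaling (-1.01, -0.79 and -1.36). Col12a1 and Col22a1, both dim, differed by -0.15 and 0.08, and Col20a1 by 0.07. Col19a1, a rare chain of muscle and brain, was dim and called lower (-0.44, SE 0.14, limma adjusted p = 0.0416). Its samples read 0.04 to 0.06 in WT and 0.02 to 0.03 in TGFb1-Tg lungs, with pools of 0.04 to 0.06 and 0.03. Col19a1 lost its call on leaving out any array but TGFb1-Tg replicate 1.

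The beaded filament chains among the 41 were called higher in 3 of 5 and lower in none, with a median of 0.64. Col6a5, a beaded filament chain printed under another symbol and given below, was called lower. The type VI chains build microfibrils that link cells to fibrils. Col6a1 had ratios from -0.2 to 0.16 in WT and from 0.46 to 0.84 in TGFb1-Tg lungs and rose by 0.64 (SE 0.11). Col6a2 had -0.19 to 0.24 against 0.55 to 0.77 and rose by 0.67 (SE 0.1), so both moved without overlap and by like amounts. Col6a3, the third chain of the same molecule, differed by only 0.16 (SE 0.08, limma adjusted p = 0.197) as a mean of 3 probes. Its bright probes were called higher, by 0.55 and 0.71, and read 9.77 to 10.59 and 5.56 to 6.54 in WT against 19 to 21.86 and 11.43 to 14.15 in TGFb1-Tg lungs. The dimmest probe was called lower (-0.79, SE 0.12) and read 0.3 to 0.38 against 0.2 to 0.29. In the ratio, averaging thus removed a call that the bright probes carried. The pool of each probe was also brighter on the TGFb1-Tg arrays, by 1.27 to 1.35 times. In the sample channel alone the mean of the 3 probes was called higher when median-centred (0.83) and after quantile normalization (0.54). That mean was also called higher when centred on probes that are not dim (0.47).

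Col28a1, a beaded chain best known from nerve, was dim but did not overlap between groups. It read 0.03, 0.04, 0.03 and 0.04 in WT and 0.11, 0.1, 0.1 and 0.09 in TGFb1-Tg lungs, and its ratio rose by 1.32 (SE 0.17, 2.49-fold, limma adjusted p = 0.000811). At 0.03 to 0.04, a step of 0.01 limits how well that fold is known. Col6a6 differed by -0.04 and had no call. Of the chains printed under other symbols, Col6a5 was called lower by -2.01 (SE 0.09, limma adjusted p = 1.52e-05), with samples of 2.57, 2.11, 2 and 1.41 in WT and 0.55, 0.45, 0.34 and 0.39 in TGFb1-Tg lungs. Col6a4 (-0.18) and Col26a1 (0.00) had no call.

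The transmembrane chains held the deepest fall among the 41. Col17a1, which anchors epithelial cells through hemidesmosomes, read 0.65, 0.45, 0.45 and 0.52 in WT and 0.12, 0.14, 0.14 and 0.12 in TGFb1-Tg lungs. Its pool stayed at 0.48 to 0.54 on all 8 arrays. Col17a1 fell by 1.97 on the log2 scale (SE 0.12, 3.93-fold lower, limma adjusted p = 3.41e-05), with a wide gap between the groups. Of 6 markers of basal epithelium, the cells of the airway that carry most hemidesmosomes, 2 were called lower, Krt15 (-1.46, SE 0.16) and Krt14 (-0.12, SE 0.02; no call in the median-centred sample channel), and none higher. Their summed sample intensity was 1.21 to 1.56 in WT and 0.84 to 0.95 in TGFb1-Tg lungs, and none was listed at 0. Krt5 (-0.09) and Trp63 (-0.14) had no call by the ratio. After quantile normalization the sample channel called 3 of these markers lower, with Krt5 at -0.33 (limma adjusted p = 0.0346). Centred on probes that are not dim, it called the same 3 markers lower. Their part in the Col17a1 result was not tested.

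The other transmembrane chains changed less. Col13a1, found at the neuromuscular junction and other adhesion sites, was called lower by the ratio (-0.36, SE 0.1, limma adjusted p = 0.029) and lost that call without WT replicate 4 or without any of TGFb1-Tg replicates 1, 2 and 3. Its samples read 3.16, 2.49, 2.06 and 2.48 in WT and 1.99, 2.13, 1.93 and 2.39 in TGFb1-Tg lungs, which overlapped. The median-centred sample channel gave 0.03 with no call, and the quantile-normalized one called it lower (-0.44, limma adjusted p = 0.0236). Centred on probes that are not dim, that channel gave -0.32 with no call. Col23a1 was called higher by the ratio (0.19, SE 0.03, limma adjusted p = 0.00181) but not by the median-centred (0.01) or quantile-normalized (-0.16) sample channel, and was called lower in that channel centred on probes that are not dim (-0.34, adjusted p = 0.0427). Col25a1, a chain of neurons, was dim and had no call (0.16, SE 0.07).

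All 3 of the anchoring fibril and multiplexin chains rose, with a median of 0.73. Col15a1, a multiplexin of vessel and muscle basement membranes, had ratios of 0, -0.28, 0.29 and 0.08 in WT and 1.32, 1.2, 1.14 and 1.09 in TGFb1-Tg lungs. It rose by 1.16 (SE 0.12, 2.24-fold, limma adjusted p = 0.000306). Col7a1, which forms the anchoring fibrils beneath hemidesmosomes, rose by 0.73 (SE 0.06) from samples of 0.16 to 0.24 to samples of 0.27 to 0.32. Col18a1, the source of endostatin, rose by 0.58 (SE 0.03) from 1.03 to 1.09 in WT to 1.78 to 2.17 in TGFb1-Tg lungs. Col7a1 and Col17a1, both parts of the epithelial anchoring complex, thus went opposite ways. Of 8 endothelial markers, 6 were called lower and none higher. The summed sample intensity of 7 of them was 45.7 to 55.4 in WT and 37.8 to 40.6 in TGFb1-Tg lungs. Kdr, which lacked some values and was called lower (-1.1), was left out of that sum. The median-centred sample channel called 2 of the 8 lower and Emcn higher (0.63), and the quantile-normalized one 6 lower and none higher. Centred on probes that are not dim, that channel called 6 lower and Emcn higher (0.28). None of the 8 was listed at 0, and their part in these results was not tested.

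Partner chains of one molecule were set against each other within each array, as the difference of their log2 ratios and without a test. Col1a1 minus Col1a2 was -0.16 to 0.09 in WT and 0.29 to 0.49 in TGFb1-Tg lungs. Col5a1 minus Col5a2 was -0.01 to 0.07 against -0.96 to -0.71, the widest split of the pairs compared, with the larger gain in the α2 chain. Col8a1 minus Col8a2 (-0.08 to 0.09 against 0.56 to 0.79) and Col4a5 minus Col4a6 (-0.16 to 0.07 against 0.31 to 0.63) also separated the groups. Col6a1 minus Col6a3 went from -0.11 to 0.04 in WT to 0.14 to 0.74 in TGFb1-Tg lungs, but the Col6a3 mean includes its dimmest probe, and its bright probes differed by 0.55 and 0.71 beside 0.64 for Col6a1. Col4a1 minus Col4a2 moved less, from -0.01 to 0.01 in WT to 0.1 to 0.28 in TGFb1-Tg lungs. Col6a1 minus Col6a2 and Col4a3 minus Col4a4 overlapped. Pools enter each of these differences, and for Col1a2 the pool was 1.33 times as bright on the TGFb1-Tg arrays. By their sample intensities alone Col1a1 and Col1a2 rose by like amounts, 0.97 and 1.04 when median-centred and 0.76 and 0.82 after quantile normalization, so their split was seen in the ratio only. Col5a1 and Col5a2 stayed apart there, at 1.42 and 2.28 when median-centred.

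**Figure D3:**
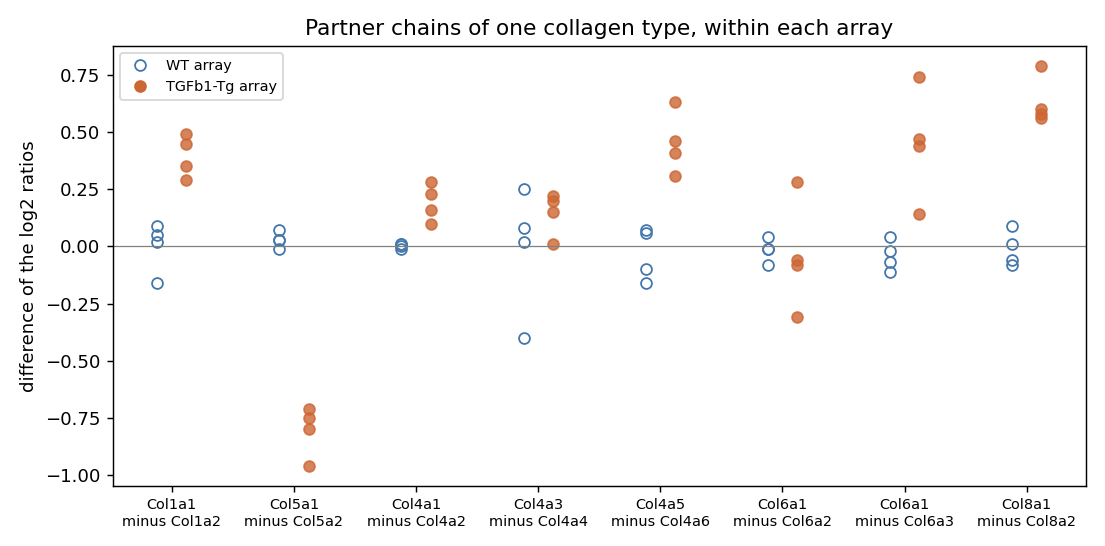
Difference of the log2 ratios of partner chains (y axis) for 8 pairs within each array, with open circles for WT arrays and filled circles for TGFb1-Tg arrays. Col1a1 and Col1a2, Col5a1 and Col5a2, Col4a1 and Col4a2, Col4a5 and Col4a6, Col6a1 and Col6a3, and Col8a1 and Col8a2 separate the groups, and the other pairs overlap.

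Probes of one gene did not always give one answer. Of 12 chains with several probes, 5 had the same call on every probe and 7 did not. Probe by probe, 30 of 54 were called higher and 7 lower, where 32.9% of all probes were called, 16% higher and 16.9% lower. By the authors' deposited p-value for each probe and array, 19 collagen probes were under 0.01 on all 4 TGFb1-Tg arrays, beside 7.22% of all probes, and none was on all 4 WT arrays, beside 0.0381% of all probes.

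**Figure D4:**
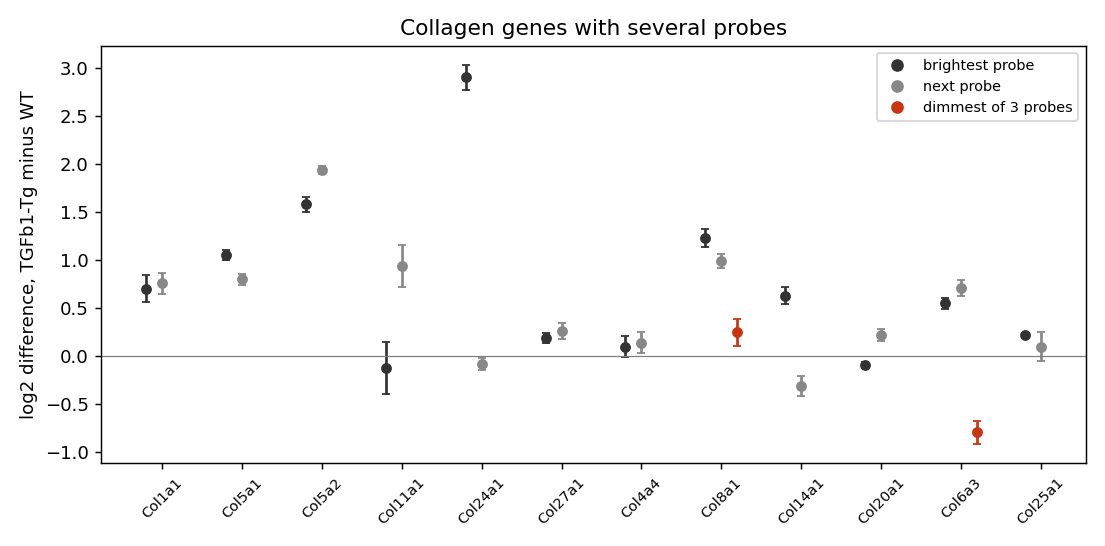
Log2 difference, TGFb1-Tg minus WT, with its SE as bars (y axis), of each probe of the 12 collagen genes with several probes (x axis), shaded by brightness within the gene. The probes of Col24a1 lie at 2.90 and -0.08, and the dimmest probe of Col6a3 lies below 0 while its others lie above.

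Because the pools differed between the array sets, the sample channel was also compared directly. Centred on each array's median, it called 22 chains higher and 5 lower, where 48.3% of all genes were called (35.1% higher and 13.2% lower) and the median of all genes shifted by 0.12. After quantile normalization it called 20 higher and 6 lower, beside 33.7% of genes called, 20.5% higher and 13.2% lower. Centred on probes that are not dim, it called 20 higher and 12 lower, beside 53.5% of genes called, 16.8% higher and 36.7% lower, with the median of all genes at -0.24. The fibrillar chains gave 8 higher and none lower under each of these scalings. In all, 17 chains were higher and 3 lower by the ratio and by all 3 scalings, and 1, Col23a1, was called in opposite directions. The 3 lower chains were Col17a1 and the dim Col10a1 and Col19a1. The pools of Col10a1 and Col19a1 were also lower on the TGFb1-Tg arrays, and their ratio calls were lost on leaving out most single arrays. The dim chains depended most on the scaling, with 1 higher and 4 lower, 1 and 3, and 1 and 8 in that order.

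**Figure D5:**
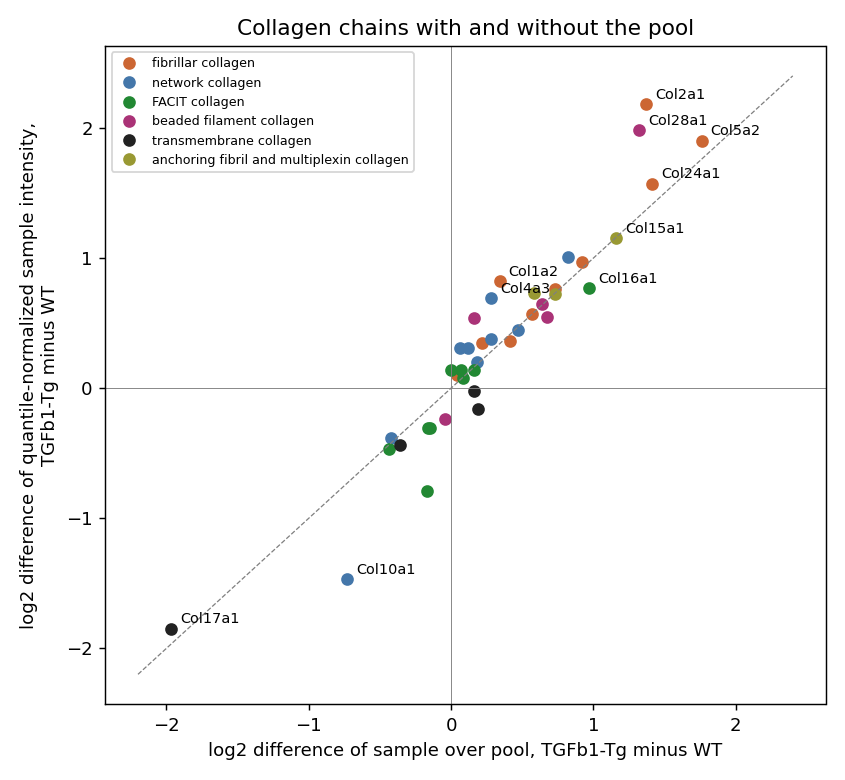
Difference of log2 sample over pool (x axis) against the difference of the quantile-normalized sample channel (y axis), both TGFb1-Tg minus WT, for 40 collagen genes coloured by class, with a dashed line of equality. Col2a1, Col28a1, Col1a2 and Col4a3 lie above the line, and Col10a1 lies below it.

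The genes that make, process, bind and degrade collagen were described from lists by the same test. Of 20 genes of chain modification and folding, 12 were called higher and 2 lower. P4ha3, a prolyl hydroxylase subunit, was dim and rose by 1.30 (SE 0.07), and the subunit P4ha1 was called lower by the ratio (-0.55, SE 0.05) but not by the median-centred (0.00) or quantile-normalized (-0.20, adjusted p = 0.241) sample channel. That channel called 17 and 12 of the 20 higher in the same order, and none lower. Centred on probes that are not dim, it called 10 higher and 2 lower, P4ha1 among the latter. Of 14 genes of procollagen processing and crosslinking, 6 were higher, with the propeptidase Adamts2 at 1.57 (SE 0.09), and 2 were lower, with the enhancer Pcolce2 at -1.46 (SE 0.12). Of these 14, the sample channel called 8 higher and 2 lower when median-centred, and 7 and 1 after quantile normalization. Centred on probes that are not dim, it called 7 higher and 6 lower. Of 11 collagen receptors, 5 were higher, led by the uptake receptor Mrc2 (1.06, SE 0.13), and 4 were lower, led by the integrin subunit Itga1 (-0.23, SE 0.04). The median-centred sample channel called 6 receptors higher and none lower, with Itga1 at 0.04. It called 5 higher and 2 lower after quantile normalization, and 5 and 4 when centred on probes that are not dim. Itga1 was called lower under both of these scalings. Of 6 collagen-degrading proteases, 5 were higher, led by the lysosomal protease Ctsk (2.53, SE 0.13), and Mmp9 was lower (-1.44, SE 0.19).

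Markers of fibroblasts, the main source of fibrillar collagen, did not rise as a list. Of 8, 2 were called higher, with Lum at 0.60 (SE 0.12), and 5 lower, with Wnt2 at -1.42. Their summed sample intensity, not centred between arrays, was 49 to 57.6 in WT and 38.2 to 41.2 in TGFb1-Tg lungs, and none was listed at 0. Of 6 mesothelial markers, 1 was higher and 1 lower, of 6 fat markers 5 were lower, and of 9 markers of skeletal and cardiac muscle 7 were lower. The defining epithelial markers Sftpc and Scgb1a1 had too few values for a test, and of the 3 epithelial markers tested Nkx2-1 was higher (0.50) and Foxj1 lower (-0.74). The median-centred sample channel called 3 fibroblast markers higher and 2 lower, the quantile-normalized one 1 and 5, and Foxj1 had no call in the former (-0.34). Centred on probes that are not dim, that channel called 1 fibroblast marker higher and 4 lower. The part of these markers in the collagen results was not tested.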

How the data were processed

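The collagen chains and the gene lists were chosen with earlier results of these data known. The authors deposited the intensity of both channels of each array, scaled to small decimals and given to 2 decimals from 0.01 up, with a p-value per probe and array, per the file headers. The deposited value table holds log10 of sample over pool, which matched the intensities within 0.002 for all but 0 to 4 probes per array and had a median of 0 on every array. The submitters' processing notes list Agilent Feature Extraction 8.5.1.1, and the sources used here do not state how it corrected background or balanced the dyes. Per the labels' protocols, 100 ng of total RNA was amplified.

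Probes were named by accession (6974), current symbol (16550), updated symbol (2555) or the file's symbol (3984), through the RefSeq table of GRCm38.p6, and 9278 had no gene. Probes of a gene were averaged as log2(sample / pool), with no offset. Groups were compared two-sided and without covariates in limma 3.58.1 (R 4.3.3; lmFit, then eBayes). A gene needed 2 values in each group, which 87 genes lacked, and p-values were adjusted by Benjamini-Hochberg over the other 25647. The sample channel was tested in the same way after centring on the array median. The median SE of a gene's difference was 0.0555, and the number of arrays limits the precision. The chains were all accounted for, with values per array for fibrillar and type IV chains and for those called with a log2 difference of at least 1. From the other lists, counts and the genes with the largest rise and fall were named; other genes named were chosen after their values were seen. Fits were tested on simulated data. No column of sample values was left unused. The same-numbered replicates of the groups did not deviate together (r = 0.0306, -0.0354, 0.0497 and 0.0315 over 16530 genes), so the numbers were not taken as pairs. Python 3.11.15, pandas 2.3.3 and matplotlib 3.10.9 served for tables and plots.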

Additional observations from a re-analysis of the deposited data

Results flagged for a closer look

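Within a group of 4 arrays, a value was singled out by Dixon's test where its gap to the nearest other was most of the group's range. For unrounded values chance does so in about 1 of 20 groups. Here 75 groups were tested and 14 values were singled out. Where the other values of a group were tied by rounding, that rate does not apply. Among the chains with coarse dim readings, the arrays that stood apart were Col9a3 in WT replicate 3 (-0.14, others 0.0), Col10a1 in WT replicate 1 (0.17, others 0.0), Col11a1 in TGFb1-Tg replicate 2 (1.08, others 0.21 to 0.29), Col12a1 in WT replicate 4 (0.19, others 0.0) and in TGFb1-Tg replicate 3 (-0.42, others 0.0). Col19a1 in TGFb1-Tg replicate 1 (0.0, others -0.58), Col22a1 in TGFb1-Tg replicate 1 (0.32, others 0.0) and Col25a1 in WT replicate 3 (0.1, others 0.0) and in TGFb1-Tg replicate 2 (0.4, others 0.11) were of the same kind. On these probes a change of 0.01 in one channel is enough to set an array apart.

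Col11a2 stood apart in WT replicate 4 (0.09, others 0.0). Of the brighter chains, Col4a1 was high in WT replicate 3 (0.19, others -0.08 to -0.03), and Col4a2 was high in the same array (0.2, others -0.08 to -0.04) and in TGFb1-Tg replicate 3 (0.49, others 0.19 to 0.23). Col4a3 was low in TGFb1-Tg replicate 2 (0.03, others 0.27 to 0.32). These are log2 ratios of sample over pool.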

How the results depend on the processing

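Of 24 called chains, 9 kept their call under each of up to 16 settings, 8 of them higher (Col2a1, Col5a1, Col5a2, Col7a1, Col8a1, Col16a1, Col18a1 and Col24a1) and Col17a1 lower. The other 15 lost it under at least 1, and 9 uncalled chains gained one. Quantile normalization of the ratios, which gives WT and TGFb1-Tg arrays the same spread, left 8 chains higher and 2 lower of 19 and 5, with a median of 0.15 in place of 0.21, and 1602 higher and 1478 lower of 4874 and 5082 genes. Without dim genes, 3 chains were lower and the median was 0.31, fewer chains being tested. With the replicate block, 18 chains were higher and 3 lower; Col13a1, Col19a1 and Col27a1 lost their calls there, Col27a1 at an adjusted p of 0.0687. Leaving out 1 array gave 16 to 20 chains higher and 2 to 4 lower. The median-centred sample channel gave 9003 genes higher and a collagen median of 0.65 (0.60 to 0.74 leaving out 1 array). In that channel quantile normalization gave a median of 0.35 and 5261 genes higher, and centring on probes that are not dim, an alternative chosen after seeing the data like the omission of single arrays in this channel, gave 0.30, 4313 genes higher, 9416 lower in place of 3395, and 12 chains lower in place of 5. Col13a1 changed sign, from -0.36 by the ratio to 0.03 in the median-centred sample channel. After quantile normalization of that channel it was called lower, at -0.44. Col23a1 went from 0.01 to -0.34 in that channel when centred on probes that are not dim. Col4a6 (-0.24) and Col23a1 (0.01) lost the ratio's call in the median-centred sample channel. Another 15 results without a call changed sign under some setting and stayed without a call. Where no construction of the setting is named, the cause was not tested. Dim probes, with steps of 0.01, and chains near the channel maximum limit what their differences can show.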
